A study of Mus musculus with 2 samples.

Results

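Ifng, Tnf, Il2, Csf1 and Csf2 are the 5 effector cytokine genes described here, taken by symbol from the 32285 genes that both deposited count matrices list. Each symbol had a single entry. Their levels, the cells that held them alone or together, and their distribution over cell states marked by Havcr2, Tcf7, Pdcd1 and Mki67 were read in 6901 CD8+ T cells of control mice and 8164 of NK-depleted mice.

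A CD8+ T cell whose receptor binds its antigen secretes cytokines for a few hours and then stops, while its cytotoxic granules act on the cell it touches. Interferon gamma, encoded by Ifng, activates macrophages and raises antigen presentation on tumour cells. Tumour necrosis factor, encoded by Tnf, drives inflammation and can kill cells that carry its receptors. Interleukin 2, encoded by Il2, is a growth factor for T cells, and its production is an early function to be lost under lasting antigen exposure. Csf1 encodes the growth factor of macrophages, and Csf2 encodes GM-CSF, a growth factor of granulocytes, macrophages and dendritic cells. The transcripts of several of these genes are short-lived because proteins bind AU-rich stretches near their 3′ ends.

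The cells were live CD8+ T cells sorted on day 9 from tumours of MC38, a colon carcinoma line of the mouse, in wild-type (WT) hosts. The control group carries the treatment label PBS, but its library is named CD8Iso, so the labels differ on what the control mice received. The NK-depleted group received the a-NK1.1 antibody, which removes natural killer (NK) cells and can also bind NK1.1 on other lymphocytes. Each group is 1 library made with 10x Genomics 5′ chemistry, the labels state no number of mice for it, and without replicates no difference could be tested. The NK-depleted library is called the depleted library for short. Every interval in parentheses is an exact 95% interval for counting error alone.

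A cell entered the analysis with at least 500 detected genes, a mitochondrial share of UMIs (unique molecular identifiers, each a captured transcript) under 10%, and at least 1 UMI of a Cd3 chain gene and of Cd8a or Cd8b1. This gate took 96.3% of the filtered control barcodes and 97.7% of the filtered NK-depleted barcodes, with medians of 11444 and 12289.5 UMIs per cell. As a check of the CD8 T label on genes the gate did not use, the T cell receptor gene Trac stood at 836 and 704 CPM and Cd4 at 0.432 and 0.207 CPM in control and depleted-library cells. CPM are the UMIs of a gene per 1000000 UMIs of the cells in question. Markers of other cells were low but present: dendritic cell genes summed to 216 and 143 CPM, NK cell genes to 99.2 and 116 CPM, gamma delta T cell genes to 29.1 and 46.7 CPM, and macrophage genes to 22.5 and 18.5 CPM. The defining NK gene Ncr1 stood at 0.169 and 0.0239 CPM, but Eomes of the same list stood at 20.5 and 29.1 CPM. Of the B cell list, Ms4a1 had 0 control UMIs and 1 NK-depleted UMI, and Cd79b stood at 4.01 and 3.20 CPM. Ikzf4, listed with Cd4 as a CD4 T cell gene, stood at 21.0 and 23.3 CPM. The libraries shared 391 barcodes, of which 26 passed the gate in both.

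The promoters of 4 of the genes are shown because T cell receptor signals reach these cytokines through the factor NFAT, whose core recognition letters are GGAAA. Each window is the 250 bases before the start site in RefSeq for GRCm38.p6, written 5′ to 3′ on the gene's strand. The Ifng window is chr10:118440796-118441045 on the plus strand. The minus-strand windows are chr17:35202008-35202257 for Tnf, chr3:37125955-37126204 for Il2 and chr3:107760470-107760719 for Csf1. Capitals mark GGAAA on either strand, so also as TTTCC, and the TATA box letters TATAAA on the gene's strand.
Ifng: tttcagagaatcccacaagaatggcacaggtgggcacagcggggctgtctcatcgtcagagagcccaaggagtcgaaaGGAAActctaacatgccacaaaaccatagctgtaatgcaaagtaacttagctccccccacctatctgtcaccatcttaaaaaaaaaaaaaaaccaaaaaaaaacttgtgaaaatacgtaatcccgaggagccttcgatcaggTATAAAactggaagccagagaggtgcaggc
Tnf: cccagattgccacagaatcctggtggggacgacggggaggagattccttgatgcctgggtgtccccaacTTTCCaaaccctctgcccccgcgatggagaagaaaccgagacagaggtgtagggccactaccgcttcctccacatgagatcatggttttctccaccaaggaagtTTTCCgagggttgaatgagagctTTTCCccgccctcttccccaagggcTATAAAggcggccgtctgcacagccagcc
Il2: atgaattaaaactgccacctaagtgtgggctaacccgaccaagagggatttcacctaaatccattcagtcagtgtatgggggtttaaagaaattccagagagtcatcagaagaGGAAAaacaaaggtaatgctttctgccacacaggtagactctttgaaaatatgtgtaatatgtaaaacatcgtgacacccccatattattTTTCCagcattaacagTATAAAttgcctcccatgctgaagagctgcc
Csf1: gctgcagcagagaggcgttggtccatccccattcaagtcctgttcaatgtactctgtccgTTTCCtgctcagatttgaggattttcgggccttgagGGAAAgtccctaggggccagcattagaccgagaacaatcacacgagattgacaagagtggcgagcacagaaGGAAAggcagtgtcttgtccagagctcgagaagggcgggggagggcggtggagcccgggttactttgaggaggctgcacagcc

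GGAAA occurred once in the Ifng window at position -172, counting back from the start site. The Tnf and Csf1 windows held 3 matches each and the Il2 window 2. TATAAA lay at -30 in Ifng, -29 in Tnf and -31 in Il2 and was not among the letters of the Csf1 window. Of 32851 RefSeq windows of this length, 55.6% held GGAAA and 7.59% held TATAAA. The AP-1 letters TGANTCA (6.75% of windows) had no match in the 4 windows, and the NF-kB letters, GGGA and CC with any 4 bases between them (17.6%), had 3 in Csf1, of which 2 overlapped each other and a GGAAA match. Both were read on either strand. The Csf2 window in that table lies 232 bases upstream of the start that the GENCODE M21 annotation gives, so it was not printed. A match is a description of letters and not of a bound site.

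All 5 genes are protein coding in GENCODE M21 on mm10. Ifng spans chr10:118441046-118445892, Tnf chr17:35199381-35202007, Il2 chr3:37120523-37125959, Csf1 chr3:107741048-107760469 and Csf2 chr11:54247271-54249667. The AU-rich pentamer ATTTA, part of the element that marks short-lived transcripts, occurred 6 times in the longest annotated 3′ untranslated region of Ifng, 8 times in that of Tnf, 7 in Il2, 4 in Csf1 and 9 in Csf2, against a median of 1 over 21022 genes. Of these genes, 16.9% held at least as many as Ifng, 10.5% as Tnf, 13.3% as Il2, 28.0% as Csf1 and 8.57% as Csf2. Per kilobase the density was 9.51 in Ifng, 10.5 in Tnf, 12.05 in Il2 and 28.4 in Csf2, but 1.89 in Csf1. A density at least as high was found in 1.34%, 1.04%, 0.699% and 0.0809% of genes, but in 37.5% for Csf1. By letters, Csf1 thus lacked both the TATA match and the dense AU-rich repeats found in Ifng, Tnf and Il2.

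Ifng was by far the most abundant of the 5 transcripts and was lower in the depleted library. It stood at 435 CPM (431 to 438, from 46258 UMIs) in the control library and 325 CPM (321 to 328, from 40685 UMIs) in the depleted library. The ratio of NK-depleted over control was 0.747 (0.737 to 0.757). Csf1, the macrophage growth factor, was lower too, at 50.3 CPM (49.0 to 51.7) and 35.1 CPM (34.1 to 36.1), a ratio of 0.697 (0.670 to 0.725). Tnf differed by no more than its counting error, at 15.5 CPM (14.8 to 16.3) and 16.4 CPM (15.7 to 17.2), a ratio of 1.06 (0.993 to 1.13).

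Of the scarce genes, Il2 was higher in the depleted library and Csf2 differed by no more than its counting error. Il2 stood at 5.63 CPM (5.18 to 6.096, 599 UMIs) in the control library and 8.14 CPM (7.65 to 8.65, 1020 UMIs) in the depleted library, a ratio of 1.45 (1.31 to 1.60). This ratio rested on a handful of cells and turned to a log2 ratio of -0.36 without the 5% of cells with the most UMIs. Csf2 stood at 4.22 CPM (3.84 to 4.63) and 4.02 CPM (3.68 to 4.39), a ratio of 0.953 (0.838 to 1.09). In both libraries the order of the levels was Ifng, Csf1, Tnf, Il2, Csf2, with no overlap between the intervals of neighbours. The order of Il2 and Csf2 depended on few cells. Without the cells holding at least 10 UMIs of the gene, Il2 and Csf2 stood at 2.70 and 2.44 CPM in the control library. In the depleted library they then stood at 2.82 and 3.51 CPM, the reverse order. UMIs of a 5′ library count transcript ends and were not divided by length, and capture may differ between genes.

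Across the transcriptome, 8893 genes had a mean of at least 5 CPM. Of these, 6.76% were at least 25% higher and 11.7% at least 20% lower after NK depletion, which is the same fold in either direction, and the median over all of them was -0.06 on the log2 scale. Csf2 was under that mean. Of the remaining 4 cytokines, Il2 was higher past the fold, Ifng and Csf1 were lower, and Tnf lay between. The split of all genes depended on the scaling: 36.6% of the genes past the fold were higher with CPM, 61.1% with TMM factors and 64.2% with median-of-ratios factors, which moved the median to 0.02 and 0.04. Under those factors Ifng stayed lower, at log2 ratios of -0.34 and -0.32, and Csf1 at -0.44 and -0.42.

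For Ifng the share of cells with a UMI differed less between the libraries than the level did. Each cell was thinned at random to 5500 UMIs, which left 6246 control and 7384 NK-depleted cells, because a share depends on depth. Ifng was then seen in 47.9% (46.6 to 49.1) of control cells and 45.8% (44.6 to 46.9) of those in the depleted library, and without thinning in 59.8% and 60.1%. In the same thinned cells the Ifng level was 357 and 292 CPM, closer together than the 435 and 325 CPM over all UMIs. Csf1 was seen in 15.4% (14.6 to 16.4) and 13.0% (12.3 to 13.8), and unthinned in 26.6% and 23.2%. Tnf was seen in 6.47% (5.87 to 7.11) and 6.88% (6.31 to 7.48), and unthinned in 15.4% and 15.6%.

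Il2 and Csf2 were seen in few cells at this depth. Il2 was seen in 1.59% (1.29 to 1.93) of control cells and 1.38% (1.13 to 1.67) of those in the depleted library, and unthinned in 3.58% and 3.92%. Csf2 was seen in 0.817% (0.609 to 1.07) and 1.37% (1.12 to 1.66), and unthinned in 1.87% and 2.65%. Over all UMIs, Csf2 thus had more positive cells in the depleted library at a level that was no higher. Its positive cells then held a mean of 3.48 UMIs (control) and 2.33 UMIs (NK-depleted). The control values rest in part on 13 cells with at least 10 Csf2 UMIs, which held 42.3% of them. With thinned counts the order of the levels turned, to 3.20 CPM (control) and 3.67 CPM (NK-depleted). The thinned share difference was 0.551 percentage points here and 0.199 when the thinning was drawn again.

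Free RNA can place UMIs in cells that do not make a transcript. As a reference, cells were taken that held UMIs of at least 2 genes of a short naive T cell list, which includes Ccr7, Lef1 and S1pr1, and none of Pdcd1 and Havcr2. These 758 control and 1243 NK-depleted cells had medians of 10675 and 10060 UMIs. Ifng was seen in 15.7% (13.2 to 18.5) and 16.3% (14.2 to 18.4) of them, Csf1 in 3.56% (2.36 to 5.14) and 1.53% (0.923 to 2.38), and Tnf in 2.11% (1.21 to 3.41) and 3.30% (2.38 to 4.45). The Il2 reference was 0.923% (0.372 to 1.89) and 0.644% (0.278 to 1.26), and the Csf2 reference 0.132% (0.00334 to 0.733) and 0.644% (0.278 to 1.26). The intervals of both genes overlap those over all cells in each library, so scattered UMIs of Il2 and Csf2 could not be told apart from free RNA. Some cells of this reference may make Ifng themselves. The Csf2 reference was higher in the depleted library, as was its share over all cells, but the reference intervals of the libraries overlap. The part of this reference in the Csf2 share difference was not tested.

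**Figure D1:**
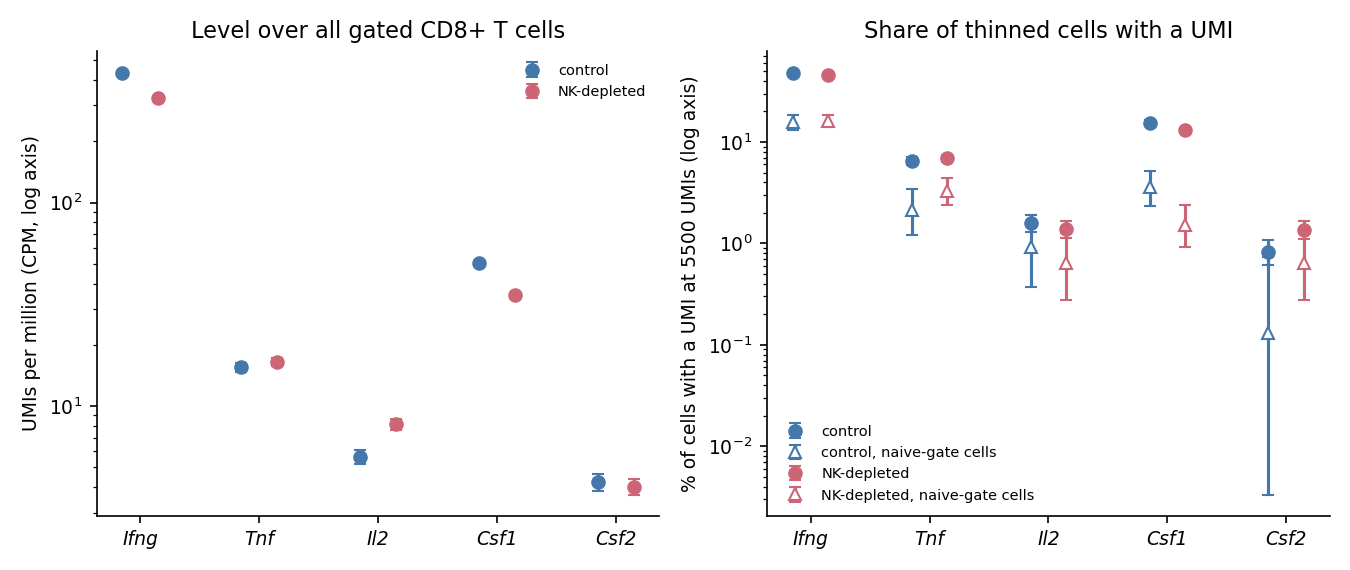
Left, CPM of each cytokine over all gated cells (log axis) in the control and NK-depleted libraries, with exact 95% Poisson intervals. Right, percent of cells with a UMI after thinning to 5500 UMIs (filled circles) and the same in naive-gate cells (open triangles), with exact 95% binomial intervals. The libraries are further apart in Ifng level (435 and 325 CPM) than in the share of cells with Ifng (47.9% and 45.8%).

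The cells that held most of a cytokine's transcripts were few, and how few differed between the genes. For Ifng, 50% of all UMIs lay in 213 control cells (3.09% of cells) and 341 NK-depleted cells (4.18%). For Csf1 the numbers were 376 and 406 cells and for Tnf 279 and 314. For Csf2 they were 17 and 40 cells, and for Il2 5 and 3 cells. Il2 was the most concentrated of the 5, with a maximum of 89 UMIs in a control cell and 369 in an NK-depleted cell, whereas no cell of either library held more than 28 Tnf UMIs or 24 Csf1 UMIs.

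Most Ifng UMIs lay in cells with many of them, and such cells were a smaller share of the depleted library. Cells with at least 10 Ifng UMIs made up 14.1% of control cells (970) and 11.4% of NK-depleted cells (932), and they held 79.2% and 70.7% of the Ifng UMIs. The highest cell held 1869 Ifng UMIs among control cells and 915 in the depleted library. With each cell counted for at most 50 Ifng UMIs, the ratio was 0.848, with at most 20 it was 0.893, with at most 10 it was 0.934, and with at most 5 it was 0.970. Over the cells with fewer than 10 Ifng UMIs, the levels were 125 and 120 CPM, a ratio of 0.958 (0.932 to 0.984). These limits on the count per cell were chosen after the values were seen, and they sort cells by the quantity compared, so the ratios describe where the UMIs lie and test nothing.

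Csf1 had fewer UMIs per cell, so the same limits touched less of it. With at most 10 Csf1 UMIs per cell the ratio was 0.713, and over the cells with fewer than 10 it was 0.749 (0.717 to 0.781), at 43.8 and 32.8 CPM. Cells with at least 10 Csf1 UMIs numbered 60 in the control and 24 in the depleted library, and they held 15.2% and 7.23% of its UMIs. The Tnf ratio was 1.04 (0.970 to 1.11) over cells with fewer than 10 Tnf UMIs.

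For Il2 and Csf2 the ratio changed most without the cells richest in the transcript. Only 6 control and 8 NK-depleted cells held at least 10 Il2 UMIs, yet these had 52.1% and 65.4% of all Il2 UMIs. Without them Il2 stood at 2.70 and 2.82 CPM, a ratio of 1.05 (0.892 to 1.23) in place of 1.45. Csf2 had 13 such control cells and 5 such NK-depleted cells, with 42.3% and 12.9% of its UMIs. Without them Csf2 stood at 2.44 CPM in control cells and 3.51 CPM in depleted-library cells, a ratio of 1.44 (1.23 to 1.68) in place of 0.953. Among the cells that held any Il2, 89.5% of control and 90.6% of NK-depleted cells had just 1 UMI.

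The cells rich in Il2 were also rich in Ifng. All 6 control cells and all 8 NK-depleted cells held Ifng, with at least 41 and 71 Ifng UMIs and medians of 190 and 337. Their summed levels of the macrophage-attracting chemokines were 6689 and 8329 CPM for Ccl3 and 21862 and 23440 CPM for Ccl4. All 6 and 6 of the 8 held Havcr2. None of the 13 control and 5 NK-depleted cells with at least 10 Csf2 UMIs held an Il2 UMI. Over all gated cells 3.58% and 3.92% held Il2, so its absence from so few cells is no finding. In turn, 1 of the 6 control and 4 of the 8 NK-depleted cells rich in Il2 held Csf2. The cells rich in Csf2 had Ccl1, a chemokine of activated T cells, at 1185 and 503 CPM. The cells rich in Il2 had 93.7 and 860 CPM, so Ccl1 did not separate the sets in the depleted library.

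**Figure D2:**
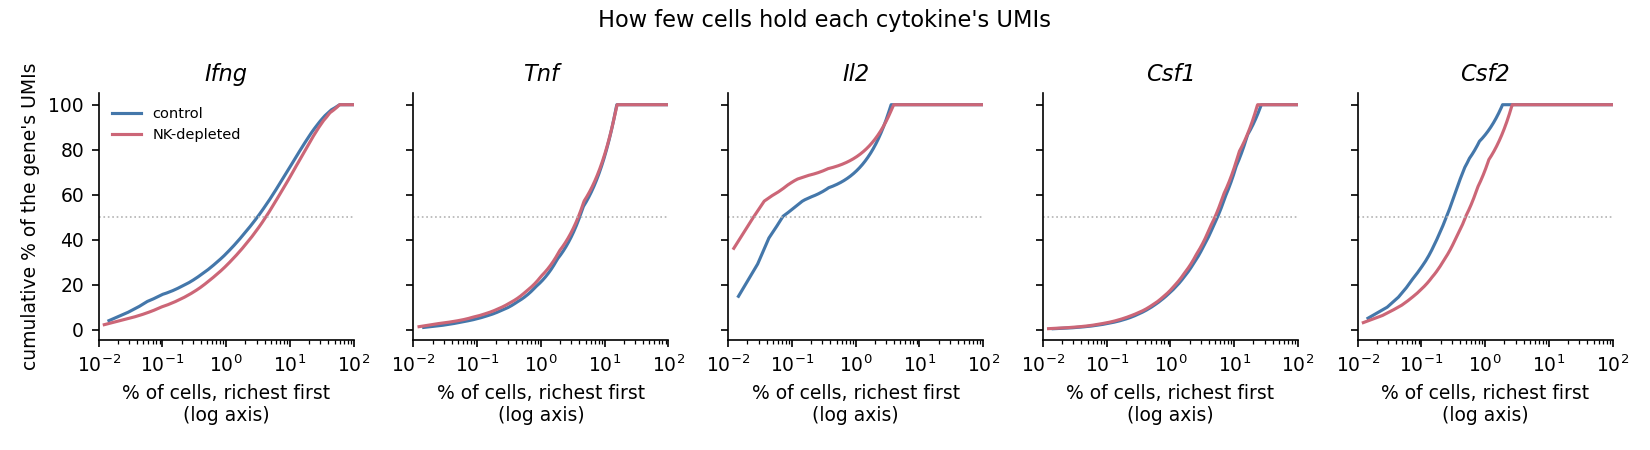
Cumulative percent of each cytokine's UMIs (vertical axis) over gated cells ordered from the richest (horizontal axis, percent of cells on a log axis), 1 curve per library. The dotted line marks 50%, which Il2 reaches with 5 control and 3 NK-depleted cells and Ifng with 213 and 341.

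Ifng and Csf1 were concentrated in cells with Havcr2, which encodes the inhibitory receptor TIM-3 of late effector and exhausted cells. In the thinned cells, 28.1% of control and 35.0% of NK-depleted cells held a Havcr2 UMI. In the control library Ifng stood at 740 CPM in cells with Havcr2 and 273 CPM in cells without, a ratio of 2.72 (2.67 to 2.77). In the depleted library it stood at 567 and 168 CPM, a ratio of 3.37 (3.30 to 3.44). Csf1 stood at 83.3 and 32.9 CPM in the control library (2.53, 2.40 to 2.67) and at 55.2 and 21.4 CPM in the depleted library (2.58, 2.42 to 2.74). With status read from all UMIs the log2 ratios were 2.47 and 2.31 for Ifng, against 1.44 and 1.75, and 1.96 and 1.84 for Csf1, against 1.34 and 1.37.

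Tnf was less tied to Havcr2. It stood at 21.2 CPM with and 12.5 CPM without Havcr2 in the control library, a ratio of 1.70 (1.54 to 1.87), and at 21.6 and 13.2 CPM in the depleted library, a ratio of 1.63 (1.496 to 1.78). Csf2 stood at 6.83 and 2.89 CPM in the control library (2.36, 1.95 to 2.86) and at 4.82 and 3.51 CPM in the depleted library (1.37, 1.15 to 1.65). The control Csf2 value was log2 0.21 when 2 UMIs of Havcr2 were required, against 1.24. The Il2 level was 1.60 and 2.86 times as high with Havcr2, but its share of positive cells was 1.54% with and 1.60% without Havcr2 in the control library and 1.70% and 1.21% in the depleted library. Without the 5% of cells with the most UMIs, the Il2 ratio of the depleted library was log2 0.034. Cells with Havcr2 were deeper, with medians of 16575 and 15404 UMIs against 11034 and 12340 without, and the part of this depth in the level ratios was not tested. The shares, read at equal depth, ran the same way for Ifng, which was seen in 72.6% of control cells with and 38.2% without Havcr2 and in 68.1% and 33.8% of NK-depleted cells.

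Tcf7, the factor of naive, memory and progenitor T cells, marked the opposite pole. It was seen in 20.9% of control and 21.3% of NK-depleted cells. Ifng stood at 196 CPM with and 498 CPM without Tcf7 in the control library, a ratio of 0.393 (0.380 to 0.406), and at 170 and 360 CPM in the depleted library, a ratio of 0.471 (0.455 to 0.488). Csf1 was 0.333 (0.299 to 0.369) and 0.332 (0.293 to 0.375) times as high in cells with Tcf7 as in those without. The ratios for Tnf were closer to level, at 0.688 (0.596 to 0.792) and 0.697 (0.610 to 0.794). Those for Csf2 were 0.390 (0.272 to 0.545) and 0.619 (0.461 to 0.818). With 2 UMIs of Tcf7 required the log2 ratios of Csf1 were -2.17 and -2.46, against -1.59 in both libraries, and that of control Csf2 was -4.32, against -1.36. Cells with Tcf7 were shallower, with medians of 11143 and 10423.5 UMIs against 12802 and 14146.5.

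Joint classes set the poles further apart. Cells with Havcr2 and no Tcf7 had 768 CPM of Ifng in the control and 571 CPM in the depleted library, and cells with Tcf7 and no Havcr2 had 154 and 84.7 CPM. For Csf1 the same classes had 86.1 and 57.1 CPM against 13.7 and 7.75 CPM. The small class with both transcripts held 109 control and 217 NK-depleted cells, with medians of 23751 and 15198 UMIs. Its Ifng level was 429 CPM in control cells and 520 CPM in those of the depleted library, a ratio of 1.21 (1.13 to 1.30), but Ifng was seen in 66.1% (56.4 to 74.9) and 48.8% (42.0 to 55.7) of its thinned cells, the opposite order. Tnf had 24.7 and 25.6 CPM in this class against 20.8 and 21.2 CPM with Havcr2 alone, while the shares with Tnf were 2.75% (3 cells) and 6.45% (14 cells) against 9.52% and 9.51%.

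**Figure D3:**
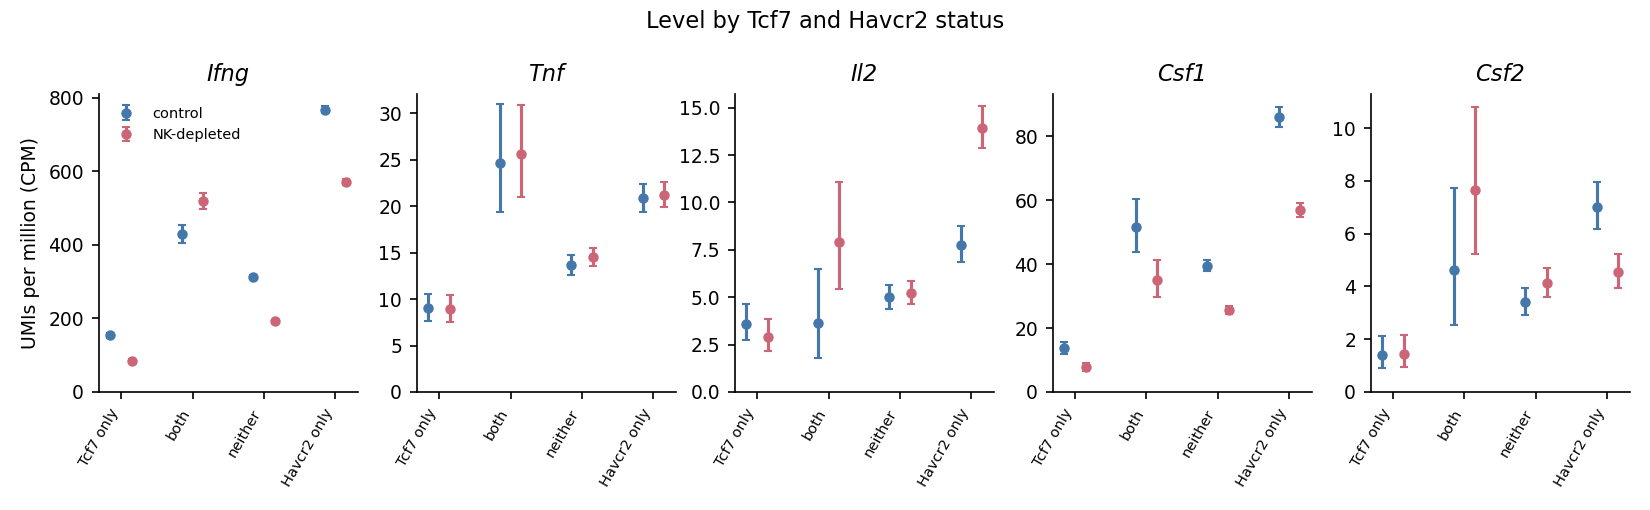
CPM of each cytokine in thinned cells with Tcf7 only, both Tcf7 and Havcr2, neither, or Havcr2 only, by library, with exact 95% Poisson intervals. Ifng and Csf1 are lowest with Tcf7 only (154 and 13.7 CPM in the control library) and highest with Havcr2 only (768 and 86.1 CPM).

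Pdcd1, which encodes the inhibitory receptor PD-1, was seen in 53.4% of control and 45.7% of NK-depleted cells. Cells with Pdcd1 had 1.89 times (1.86 to 1.93) the Ifng level of cells without it in the control library, at 549 and 290 CPM, and 1.85 times (1.81 to 1.88) in the depleted library, at 425 and 230 CPM. For Csf1 the ratios were 2.18 (2.05 to 2.32) and 2.75 (2.57 to 2.95), or log2 1.12 and 1.46, which became 2.35 and 2.26 with status from all UMIs. Il2 ran the other way, at 0.487 (0.411 to 0.576) and 0.773 (0.681 to 0.877), but turned to log2 ratios of 0.98 and 2.05 when status was read from all UMIs. Mki67, a gene of dividing cells, was seen in 24.9% of control and 35.1% of NK-depleted cells and separated the cytokine levels far less. Ifng stood at 417 CPM with and 453 CPM without Mki67 in the control library (0.920, 0.903 to 0.938) and at 330 and 325 CPM in the depleted library (1.01, 0.994 to 1.03). The Mki67 direction for control Ifng turned, to a log2 ratio of 0.30, when status was read from all UMIs, which places deeper cells in the positive class. Cells with Mki67 had medians of 19278 and 18685 UMIs against 11209 and 11526 without. At equal depth, Ifng was seen in a larger share of cells with Mki67 than without. The shares were 56.7% and 45.0% in control cells and 52.8% and 42.0% in NK-depleted cells. Tnf was slightly higher with Mki67, by 1.12 times (1.01 to 1.24) and 1.33 times (1.22 to 1.45).

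Ordering the thinned cells by their own Ifng count showed how the other transcripts followed it. Cells with 0 Ifng UMIs numbered 3256 in the control and 4004 in the depleted library, and cells with at least 20 numbered 64 and 50. From the first to the last of 5 classes, Tnf went from 9.44 to 65.3 CPM in control cells and from 8.72 to 156 CPM in the depleted library. Csf2 went from 1.51 to 42.6 CPM and from 2.63 to 32.7 CPM. Csf1 climbed early, from 25.4 to 112 CPM in control cells with 5 to 19 Ifng UMIs, and stood at 96.6 CPM in the last class. In the depleted library it went from 19.5 to 86.2 and then 105 CPM.

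Il2 followed another course. It stayed between 2.68 and 3.32 CPM over the first 4 control classes and stood at 384 CPM in the last, and in the depleted library it went from 1.73 to 4.66 CPM over 4 classes and stood at 782 CPM in the last. In the same order Ccl3 went from 43.2 to 6159 CPM and Ccl4 from 332 to 14957 CPM in the control library. Havcr2 went from 50.1 to 384 CPM, while Tcf7 went down from 115 to 14.8 CPM in the fourth class. Mki67 stood at 228 CPM (control) and 338 CPM (depleted) in cells with 2 to 4 Ifng UMIs, with intervals that overlapped those of cells with 1 (206 and 334 CPM), and at 65.3 and 116 CPM in the last class. The cells richest in Ifng thus had less of this division transcript than those with a few Ifng UMIs.

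**Figure D4:**
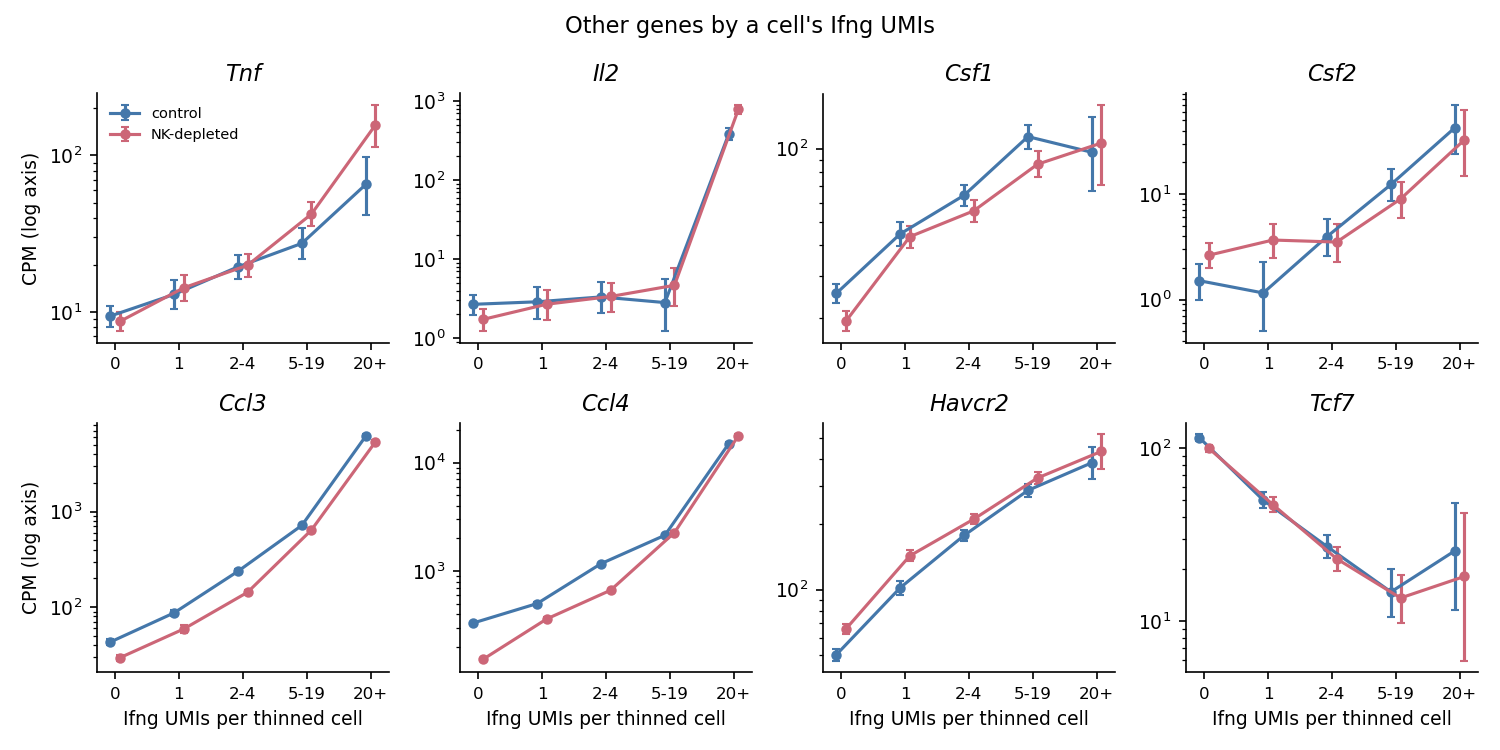
CPM (log axes) of 4 cytokines, 2 chemokines and the state genes Havcr2 and Tcf7 in thinned cells grouped by their number of Ifng UMIs, by library, with exact 95% Poisson intervals. Il2 stays under 5 CPM until the last class, where it stands at 384 and 782 CPM, and Csf1 levels off after the fourth class.

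Most cells with a cytokine held a single member. At 5500 UMIs, 44.4% (43.1 to 45.6) of control cells and 47.1% (46.0 to 48.3) of those in the depleted library held none of the 5, and 40.7% (39.5 to 41.9) and 39.1% (38.0 to 40.2) held 1. Cells with at least 2 made up 14.9% (14.0 to 15.8) and 13.8% (13.0 to 14.6), and without thinning 31.3% and 29.3%. At least 3 were held by 98 control cells (1.57%, 1.28 to 1.91) and 129 NK-depleted cells (1.75%, 1.46 to 2.07), and 4 by 5 and 4 cells. No thinned cell held all 5, which allows shares of up to 0.0590% and 0.0499% with UMIs of all 5 at this depth by the exact interval, and at full depth 2 control cells (0.0290%) and 5 NK-depleted cells (0.0612%) did. The difference in the share with at least 2 members, NK-depleted minus control, was -1.15 percentage points in this draw, -2.01 in another draw, -2.04 without thinning and -0.285 without cells holding Mki67 or Top2a.

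The commonest pair was Ifng with Csf1. Ifng alone was held by 33.6% of control cells, Ifng with Csf1 by 8.998% (8.30 to 9.73), Csf1 alone by 4.45% and Ifng with Tnf by 2.82% (2.42 to 3.26). Csf1 was seen in 21.9% (20.4 to 23.4) of control cells with Ifng and 9.55% (8.56 to 10.6) without, and in 19.6% (18.3 to 21.0) and 7.52% (6.72 to 8.38) in the depleted library. Tnf was seen in 8.43% (7.46 to 9.48) of control cells with Ifng and 4.67% (3.97 to 5.45) without, and in 9.73% (8.75 to 10.8) and 4.47% (3.85 to 5.16) in the depleted library. Il2 was hardly tied to the presence of Ifng in the control library, at 1.77% (1.33 to 2.31) with and 1.41% (1.04 to 1.88) without, and was at 1.89% (1.46 to 2.41) and 0.949% (0.672 to 1.30) in the depleted library. Csf1 did not follow Il2 beyond counting error, since it was seen in 13.1% (7.18 to 21.4) of control cells with Il2 and 15.5% without, and in 13.7% (7.71 to 22.0) and 13.0% in the depleted library.

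The Ifng level was 3139 CPM in control cells with Il2 and 313 CPM without, and 2365 and 263 CPM after NK depletion. In control cells the share with Ifng was 53.5% (43.2 to 63.6) with Il2 and 47.8% (46.5 to 49.0) without. The control level thus rests on a few cells, among them the 6 rich in Il2 with up to 1006 Ifng UMIs. In the depleted library the share with Ifng was 62.7% (52.6 to 72.1) with Il2 and 45.5% (44.4 to 46.7) without, so there the intervals lay apart. Csf2 was seen in 1.97% (1.19 to 3.06) of control cells with Csf1 and 0.606% (0.415 to 0.854) without, and in 2.70% (1.77 to 3.93) and 1.17% (0.920 to 1.46) after NK depletion.

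Cells with several cytokines were commoner among cells with Havcr2. At least 2 members were held by 29.9% of control cells with Havcr2 and 9.05% without, and by 24.1% and 8.21% in the depleted library. With and without Tcf7 the shares were 5.13% and 17.5% in the control library and 4.71% and 16.2% in the depleted library.

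Other genes set cells with at least 3 members apart from cells with none. Among 5466 genes with a mean of 20 CPM or more, 2.2% were higher and 1.01% lower by 2-fold or more in both libraries, all read at the thinned depth. The chemokines Ccl3 (1603 against 33.1 CPM in the control library, 1270 against 23.5 in the depleted library), Ccl1 (165 against 4.46, and 203 against 3.87) and Ccl4 (5169 against 287, and 4572 against 129) led the higher genes. They were followed by the decoy receptor gene Il1r2, the TNF family ligand Tnfsf14, the growth factor Areg, the granzyme Gzme, the signalling regulator Rgs16, the receptor-induced factor Nr4a3, Nrgn, the costimulatory receptor Tnfrsf4 and Serpinb1a, at least 5.09 times as high in the control library and at least 5.49 times in the depleted library. The lower genes included the factor Tcf7 (11.1 against 127 CPM, and 11.3 against 107), the lymph node egress receptor S1pr1 (16.7 against 76.6, and 9.87 against 57.2), Klra7, Cmah, Tgtp1, Treml2 and Clec2i. Of 25 T cell receptor-induced factors counted, 10 were higher in both libraries (Nr4a1, Nr4a2, Nr4a3, Egr1, Egr3, Irf4, Irf8, Rel, Nfkbid and Tnfrsf9) and 1, Eomes, was lower. Of 20 interferon gamma response genes, 1 (Irf8) was higher and 0 lower.

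The transcripts most like Ifng from cell to cell were Ccl3, with Pearson correlations over cells of 0.50 in the control and 0.48 in the depleted library, Havcr2 (0.51 and 0.48), Ccl4 (0.47 and 0.51), Rgs16 (0.47 and 0.44) and the perforin gene Prf1 (0.43 and 0.43). The values were taken on log counts per 10000 over 6901 and 8164 cells, which share a library and differ in depth. Ranked by the lower value of the libraries, the 5 most like Csf1 were Lag3 (0.41 and 0.38), an inhibitory receptor gene, Gm36723 (0.41 and 0.34), Ptms (0.36 and 0.33), Havcr2 (0.41 and 0.32) and Rgs16 (0.46 and 0.32). The genes ranked first for Tnf (Ifng, 0.22 and 0.21), Il2 (Nfkbid, 0.18 and 0.16) and Csf2 (Ccl1, 0.24 and 0.17) had weak values in sparse counts, which are no finding.

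Within the states, Ifng and Csf1 were lower in level in the depleted library in all 8 classes set by the presence or absence of Havcr2, Tcf7, Pdcd1 or Mki67. For Ifng the ratio of NK-depleted over control was 0.765 (0.753 to 0.778) with and 0.617 (0.603 to 0.631) without Havcr2, and 0.868 (0.829 to 0.908) with and 0.723 (0.713 to 0.734) without Tcf7. For Csf1 the ratios by Havcr2 were 0.662 (0.629 to 0.698) and 0.650 (0.609 to 0.694). The share of cells with Ifng went the other way among cells with Pdcd1, at 57.5% in control and 61.7% in depleted-library cells. Weighting the NK-depleted classes by their control shares left the Ifng log2 ratio at -0.50 for Havcr2, -0.44 for Tcf7, -0.36 for Pdcd1, -0.43 for Mki67 and -0.31 for Gzmk, beside -0.43 as observed over the thinned cells. Without cells holding Mki67 or Top2a the log2 ratio was -0.26, against -0.42 over all gated cells.

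Tnf and Csf2 had opposite directions in some of these classes. Among cells with Pdcd1, Tnf stood at 16.9 CPM in control cells and 21.2 CPM in depleted-library cells, a ratio of 1.254 (1.15 to 1.36), and among cells without at 13.8 and 12.01 CPM, a ratio of 0.869 (0.779 to 0.969). For Csf2 the ratio was 0.705 (0.588 to 0.845) with Havcr2 and 1.21 (1.002 to 1.47) without. These splits were not tested.

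Ifng also differed by class for further state genes, some of which the libraries held in unequal measure. Gzmk, a granzyme of early effector memory cells, was seen in 33.7% of control but 13.0% of NK-depleted cells. Among cells with Gzmk, Ifng stood at 324 CPM in control cells and 469 CPM in depleted-library cells, a ratio of 1.45 (1.402 to 1.49), and among cells without at 488 and 307 CPM, a ratio of 0.629 (0.620 to 0.639). For the integrin gene Itga4, seen in 48.9% and 20.4% of cells, the Ifng ratios were 1.04 (1.02 to 1.07) with and 0.606 (0.596 to 0.615) without. For the chemokine receptor gene Ccr2, seen in 21.4% and 23.1%, they were 1.22 (1.19 to 1.26) and 0.664 (0.654 to 0.674). Cells without Gzmk, Itga4 or Ccr2 thus had less Ifng in the depleted library, and cells with any of them had more. For Il2ra, seen in 22.1% and 31.4%, Ifng was lower in both classes. It stood at 838 and 478 CPM with Il2ra (0.571, 0.560 to 0.581) and 282 and 240 CPM without (0.854, 0.837 to 0.871). For Slamf6, seen in 17.0% and 10.2%, Ifng was also lower in both, at 501 and 444 CPM with it and 430 and 317 CPM without.

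**Figure D5:**
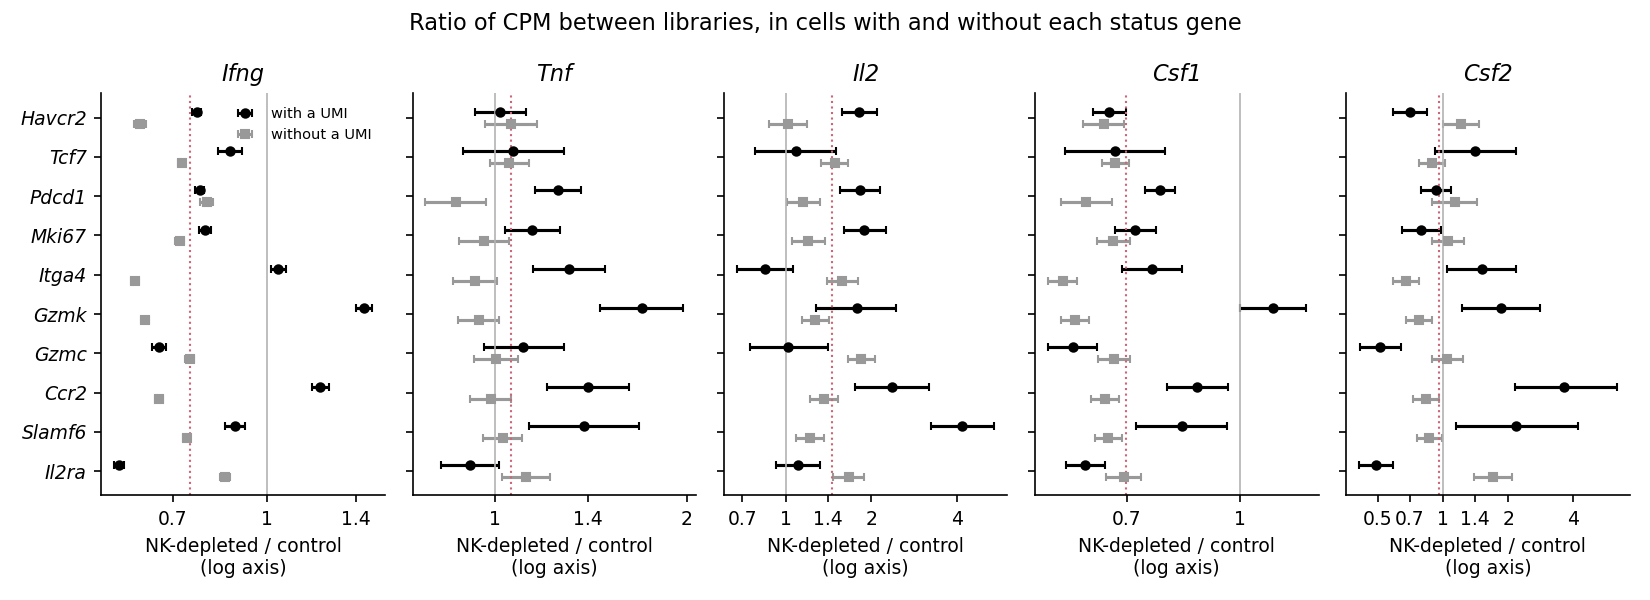
Ratio of CPM, NK-depleted over control (log axes), of each cytokine in thinned cells with (black circles) and without (grey squares) a UMI of each state gene, with exact 95% intervals. The grey line marks 1 and the dotted line the ratio over all gated cells. Ifng is above 1 with Gzmk (1.45), Ccr2 (1.22) and Itga4 (1.04) and below 1 in all classes without a UMI.

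The receptor genes counted were of receptors for Ifng, Tnf and Il2, and most were close between the libraries. Of 6 receptor genes with a mean of at least 5 CPM, Il2ra, the high-affinity chain of the interleukin 2 receptor, was higher past the fold, at 74.0 CPM in control cells and 114 CPM in depleted-library cells (ratio 1.54, 1.496 to 1.58). Tnfrsf1b, a TNF receptor of activated T cells, was lower, at 91.3 and 60.8 CPM (0.666, 0.646 to 0.687). The interferon gamma receptor chain Ifngr1 stood at 512 and 455 CPM. The shared chains Il2rb and Il2rg stood at 499 and 482 CPM and at 384 and 359 CPM, and Tnfrsf1a stood at 12.9 and 12.7 CPM. The receptor genes of Csf1 and Csf2 had means under 5 CPM and were not counted. Csf2rb stood at 5.83 and 2.24 CPM (0.384, 0.333 to 0.443) and Csf2rb2 at 2.59 and 0.694 CPM (0.268, 0.208 to 0.342). Csf1r stood at 0.404 and 0.367 CPM and Csf2ra at 2.83 and 3.11 CPM.

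Genes that switch cytokine transcription on and genes that limit cytokine transcripts were read against the 11.7% of all genes that were lower. List counts and medians here and below use CPM. They were not repeated with the TMM or median-of-ratios factors, which changed the split of all genes. Of 25 T cell receptor-induced factors, 9 were lower in the depleted library and 1 was higher, and the median log2 ratio was -0.20. Those lower included Nr4a2 (156 and 90.0 CPM), Fosb (87.3 and 58.8), Rel (105 and 71.9) and the NFAT gene Nfatc1 (114 and 79.8). Of 20 genes of transcript decay and repression, 10 were lower and 0 higher, and the median was -0.29. Tnfaip3, an NF-kB inhibitor, stood at 265 and 164 CPM, Zc3h12d at 21.6 and 13.7 CPM, the phosphatase gene Dusp1 at 108 and 69.8 CPM, and Zfp36l1, which binds AU-rich elements, at 200 and 136 CPM.

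Genes upstream and downstream of Ifng were counted the same way. Of 22 cytokine receptor, costimulatory receptor and signalling genes that induce or support Ifng, 10 were lower and 0 higher, with a median of -0.30, led by Jak2 (68.7 and 42.5 CPM), Il15ra (20.6 and 13.7), Cd28 (249 and 180) and Stat4 (195 and 147). Of 20 interferon gamma response genes, 12 were lower and 0 higher, with a median of -0.37. Iigp1 stood at 115 and 43.9 CPM, Gbp2 at 130 and 78.5 CPM, Gbp5 at 56.6 and 34.5 CPM, and Cd274, which encodes PD-L1, at 64.8 and 40.9 CPM.

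The 18 other cytokines and chemokines counted were mixed, with 4 higher, 7 lower and a median of -0.11. Tnfsf8, the CD30 ligand, stood at 14.1 and 27.9 CPM and Spp1, osteopontin, at 21.3 and 41.3 CPM. Ccl5 stood at 3006 and 1129 CPM and Areg at 18.0 and 9.55 CPM. The dendritic cell marker sum given above was also lower in the depleted library, and the NK and gamma delta T cell sums were higher. The NK list was split, with Ncr1 lower (0.169 and 0.0239 CPM) and Eomes higher (20.5 and 29.1 CPM). Eomes is also listed here as a T cell receptor-induced factor, so the higher NK sum is no measure of NK cells. The part of these marker sums in the cytokine values was not tested. Requiring 2 UMIs of a Cd3 and of a Cd8 gene left the cytokine log2 ratios at -0.42 for Ifng, 0.089 for Tnf, 0.53 for Il2, -0.52 for Csf1 and -0.071 for Csf2.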

How the data were processed

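The deposited files hold whole-number UMI counts per gene and barcode, not normalized, over 7866 control and 10111 NK-depleted barcodes, with library totals of 108106687 and 128853437 UMIs and a lowest barcode of 500. The submitters' processing notes name Cell Ranger 6.1.2, Seurat 4.0.6 and the mm10 build, with no role for each. The filters left 7163 and 8353 barcodes, and the gate 6901 and 8164 cells.

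Counts were summed over the gated cells and divided by their total (106462391 and 125332343 UMIs) to give CPM, with exact Poisson intervals. Ratios carry exact conditional binomial intervals and shares exact Clopper-Pearson intervals, all at 95% and for counting error only. There is 1 library per group, so no test was run. For shares and cell states, each cell was thinned to 5500 UMIs (the 10th percentile of UMIs per cell, from the library where it was lower, rounded down, seed 11), which left out 655 control and 780 NK-depleted cells. A state means at least 1 UMI of the gene in the thinned cell. Levels within a state use all UMIs of those cells, while the classes by Ifng count and by number of members use thinned counts. The interval code and the thinning were tested on simulated data. No doublet caller was run. Values without the 5% of cells with the most UMIs stand in for it.

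The members and gene lists were chosen with earlier results of these data known, and the list medians support nothing by themselves. Genes named are the members, up to 4 counted genes per list with the largest ratio, the counted receptors, the 5 genes most correlated with each member, and the 12 highest and 8 lowest genes of cells with several members. Some genes that these rules or the marker lists hold are not reported here. Gene positions come from GENCODE M21, in which 32158 of 32285 gene IDs (99.6%) were found, and promoter windows from RefSeq. Analyses used Python 3.11.15, numpy 2.4.6, scipy 1.17.1 and pandas 2.3.3, with TMM factors from edgeR 4.0.16 in R 4.3.3. The alternatives were other scalings, gates, thinning depths and draws, thresholds for a positive cell, and sets of cells left out.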

Additional observations from a re-analysis of the deposited data

Results flagged for a closer look

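In 11 of 50 pairs of a cytokine and a state gene, the ratio of NK-depleted over control lay above 1 in cells with the state gene and below 1 in cells without it, or the reverse, with both counting intervals clear of 1. None of these differences was tested, since each group is 1 library. How often other genes give such pairs was not counted, so 11 of 50 cannot be called many or few. The intervals treat UMIs as independent, although few cells held much of some genes. Ifng was opposite for Gzmk (1.45 with, 0.629 without), Ccr2 (1.22 and 0.664) and Itga4 (1.04 and 0.606). Csf1 was opposite for Gzmk, at 1.11 (1.001 to 1.23) with and 0.595 without, and Tnf for Pdcd1, at 1.254 and 0.869.

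Csf2 gave 6 of the 11. Its ratio was above 1 in cells with Ccr2 (3.61 with, 0.834 without), Slamf6 (2.17 and 0.860), Gzmk (1.86 and 0.771) and Itga4 (1.51 and 0.673). It was below 1 in cells with Il2ra (0.489 with, 1.70 without) and Havcr2 (0.705 with, 1.21 without). The Csf2 values rest on 449 control and 504 NK-depleted UMIs in all, of which 42.3% and 12.9% lay in cells with at least 10. The largest ratios rest on very few control cells. Control Csf2 stood at 0.879 CPM with Ccr2, seen in 0.150% of 1335 cells. With Slamf6 it stood at 1.19 CPM, seen in 0.377% of 1062 cells.

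Barcodes outside the gate, which no comparison above uses, held Ifng at 345 CPM (326 to 365) in the NK-depleted library and 140 CPM (122 to 159) in the control library, the reverse of the order inside the gate. They numbered 965 control and 1947 NK-depleted barcodes, with medians of 830 and 1013 UMIs and mitochondrial shares of 6.49% and 18.1%. Most had failed the filters on genes or mitochondrial share. The 262 control and 189 NK-depleted barcodes that passed these filters had Ifng at 53.0 CPM (38.5 to 71.1) and 79.6 CPM (57.6 to 107), with overlapping intervals.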

How the results depend on the processing

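No paired analysis was possible because each group is 1 library. Values are log2 ratios of CPM, NK-depleted over control, unless stated, and main values are -0.42 for Ifng, 0.085 for Tnf, 0.53 for Il2, -0.52 for Csf1 and -0.069 for Csf2. Of 70 alternative values for these levels, 38 stayed within the counting interval of the main value, 31 moved outside it and 1 reversed. Ifng stayed lower in the NK-depleted library in each alternative run, and so did Csf1. With TMM factors Ifng was -0.34 and Csf1 -0.44, and with median-of-ratios factors Ifng -0.32, Csf1 -0.42 and Tnf 0.18. Without cells holding Mki67 or Top2a, Ifng was -0.26, Tnf -0.027, Il2 0.035, Csf1 -0.31 and Csf2 0.50. Without the 5% of cells with the most UMIs, Ifng was -0.40 and Il2 reversed, to -0.36. As means over cells, Ifng was -0.25, Il2 0.215, Csf1 -0.22 and Csf2 0.13, and with thinned counts -0.29, 0.19, -0.29 and 0.20. With at most 10 UMIs per cell, Ifng was -0.099 and Il2 0.084, with at most 20 they were -0.16 and 0.074, and with at most 5 they were -0.043 and 0.099, with Csf1 at -0.42 and Csf2 at 0.38. Without cells with 10 or more UMIs of the member, Ifng was -0.062, Il2 0.064, Csf1 -0.42 and Csf2 0.52. The limits per cell and the removal of shared barcodes were added after seeing the data. The last moved no value beyond its interval.

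Of 48 alternative values for the difference in the share of cells, in percentage points, 43 stayed within the interval. Without thinning, Ifng reversed to 0.271 (main -2.10) and Il2 was 0.341. Csf1 was -1.14 without cells holding Mki67 or Top2a and -1.15 with 2 UMIs required (main -2.41), where Csf2 was 0.0701. The numbers of genes higher and lower, 601 and 1043, were 980 and 625 with TMM factors, 1053 and 587 with median-of-ratios factors, 2620 and 4591 with no filter, and 140 and 318 with a mean of at least 50 CPM.

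For Ifng in cells with over without a state gene, control then NK-depleted, reading status from all UMIs gave 2.47 and 2.31 for Havcr2, -0.88 and -0.81 for Tcf7, 1.93 and 2.09 for Pdcd1, and 0.30 (reversed) and 0.28 for Mki67. Requiring 2 UMIs gave 1.29 and 1.67, -1.72 and -2.003, 1.02 and 0.65, and -0.25 and -0.025. Without the 5% of cells with the most UMIs the moved values were 1.59 for control Havcr2, -1.65 and -1.14 for Tcf7, 1.08 and 1.03 for Pdcd1, and -0.17 and -0.070 for Mki67. For the other members, 8 of 96 values reversed. With status from all UMIs, control Il2 was 0.30 for Tcf7 and 0.98 for Pdcd1, NK-depleted Il2 2.05 for Pdcd1, and control Csf1 0.11 for Mki67. Control Il2 for Mki67 was 0.029 with 2 UMIs required and 0.073 without the deepest cells, where NK-depleted Il2 was 1.18 for Pdcd1 and -1.12 for Mki67. The cause of these reversals was not tested.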

Other observations

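Outside the gate, the other cytokines stood at 41.4 (control) and 49.1 (NK-depleted) CPM for Csf1, 15.8 and 17.6 for Tnf, 12.2 and 2.84 for Il2, and 1.82 and 2.56 for Csf2.

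The AU-rich nonamer TTATTTATT, a stricter form of the decay element, occurred 5 times in the longest 3′ untranslated region of Tnf, 4 times in Csf2 and 1 time in Il2, and not in those of Ifng and Csf1. Of 21022 genes, 7.66% held it.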
